A study of Saccharomyces cerevisiae with 26 samples.

Results

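Loss of glutathione and loss of metallothionein were set side by side in Saccharomyces cerevisiae, budding yeast, growing by respiration. The gsh1Δ strain lacks the gene for γ-glutamylcysteine synthetase, the first enzyme of glutathione synthesis. The cup1F8* strain carries a stop at codon 8 of every CUP1 copy and so lacks the main copper-binding metallothionein. The libraries were taken by their strain and medium labels, which gave 3 gsh1Δ and 4 cup1F8* libraries, 7 of the 26 in the series. Poly-A RNA was read from bulk cultures, in which fewer cells of a type and less RNA per cell cannot be told apart. All strains were haploid MATa his3Δ1 leu2Δ0 met15Δ0 ura3Δ0 and carried a restored HHT2 gene. The gsh1Δ strain had KanMX6 in place of GSH1. Also used were 3 H3A110Cgsh1Δ and 4 H3A110Ccup1F8* libraries, in which both histone H3 genes (HHT1 and HHT2) encode cysteine at residue 110 in place of alanine, 3 H3A110C libraries with that change alone, and 3 wild-type (WT) libraries with none of these changes. All 20 of these came from SCEG, synthetic medium with 2% ethanol and 2% glycerol in place of 2% glucose, after 2 to 3 doublings. The study's text describes SCEG as free of glutathione and the gsh1Δ strain as unable to grow in it unless glutathione is added. Whether and how much was added to the gsh1Δ cultures used for RNA is not given in the sources used here, so gsh1Δ stands for the loss of glutathione synthesis and not for a known glutathione level.

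The 2 strains lie in different sequencing sets. The 8 libraries of cup1F8* and H3A110Ccup1F8* carry the library numbers 1 to 8, and the 12 other SCEG libraries carry numbers from 7 to 20, so that 7 and 8 occur in both sets. No strain was sequenced in both. For every gsh1Δ to cup1F8* difference, strain and sequencing set cannot be told apart. The gsh1Δ to WT comparison lies within 1 set, the cup1F8* to WT comparison spans both, and these comparisons share the WT libraries. The difference between histone backgrounds, in which the gsh1Δ to cup1F8* difference with wild-type histone H3 is subtracted from the same difference with H3A110C, cancels any shift that is constant between the sets.

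Glutathione is a tripeptide thiol that holds iron-sulfur (Fe-S) clusters on glutaredoxins, buffers the cell's redox state and stores sulfur. Budding yeast reads its iron supply through clusters made in mitochondria: when the signal from these clusters falls short, the transcription factors Aft1 and Aft2 turn on genes for iron reduction, uptake and sparing. Metallothionein binds copper and so limits the free cuprous ion. Zinc supply is read by another factor, Zap1, which turns on zinc uptake genes when zinc is low.

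The sequences that bear on these groups are shown first, all from the RefSeq R64 assembly. CUP1-1 (chrVIII:212685-212720, minus strand) and CUP1-2 (chrVIII:214683-214718, minus strand) begin with the same 36 bases, printed here with codon 8, the codon replaced by a stop in cup1F8*, in capitals.
CUP1-1 and CUP1-2, first 36 coding bases: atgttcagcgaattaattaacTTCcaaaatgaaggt
Promoters are given from 250 bases before to 50 bases after the annotated gene start, for genes on which the iron, zinc and ribosome results turn. Capitals mark TGCACCC or its reverse complement GGGTGCA (the core of the Aft1 site), the Zap1 element (an 11-base inverted repeat), and GCGATGAG and AAAAATTTT (the PAC and RRPE elements of ribosome biogenesis genes). Both strands were searched, and AAAAATTTT is nearly its own reverse complement, so that 1 stretch can match on both.
FIT1, chrIV:1504851-1505150, minus strand: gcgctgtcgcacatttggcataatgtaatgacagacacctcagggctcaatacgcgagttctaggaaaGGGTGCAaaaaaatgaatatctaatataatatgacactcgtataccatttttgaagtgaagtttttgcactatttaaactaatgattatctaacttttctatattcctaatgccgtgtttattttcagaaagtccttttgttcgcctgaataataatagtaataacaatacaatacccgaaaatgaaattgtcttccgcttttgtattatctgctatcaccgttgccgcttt
FIT2, chrXV:1059281-1059580, plus strand: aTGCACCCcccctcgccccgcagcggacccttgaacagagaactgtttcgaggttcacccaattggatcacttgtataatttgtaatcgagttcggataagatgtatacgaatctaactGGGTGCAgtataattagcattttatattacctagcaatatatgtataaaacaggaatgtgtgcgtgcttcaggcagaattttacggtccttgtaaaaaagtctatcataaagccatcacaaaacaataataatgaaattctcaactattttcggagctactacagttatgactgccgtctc
LSO1, chrX:448709-449008, minus strand: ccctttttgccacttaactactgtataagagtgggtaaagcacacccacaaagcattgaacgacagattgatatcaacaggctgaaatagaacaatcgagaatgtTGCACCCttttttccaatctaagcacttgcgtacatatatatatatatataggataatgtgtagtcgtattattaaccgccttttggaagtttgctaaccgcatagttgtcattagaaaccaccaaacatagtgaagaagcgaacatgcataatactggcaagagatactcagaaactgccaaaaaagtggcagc
ZRT1, chrVII:20728-21027, plus strand: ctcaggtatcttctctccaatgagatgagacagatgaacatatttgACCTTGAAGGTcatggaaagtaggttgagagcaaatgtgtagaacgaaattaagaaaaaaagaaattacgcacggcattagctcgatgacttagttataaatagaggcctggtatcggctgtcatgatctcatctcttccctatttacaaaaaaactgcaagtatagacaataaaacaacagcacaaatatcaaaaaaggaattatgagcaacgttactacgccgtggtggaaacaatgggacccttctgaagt
PWP2, chrIII:223179-223478, minus strand: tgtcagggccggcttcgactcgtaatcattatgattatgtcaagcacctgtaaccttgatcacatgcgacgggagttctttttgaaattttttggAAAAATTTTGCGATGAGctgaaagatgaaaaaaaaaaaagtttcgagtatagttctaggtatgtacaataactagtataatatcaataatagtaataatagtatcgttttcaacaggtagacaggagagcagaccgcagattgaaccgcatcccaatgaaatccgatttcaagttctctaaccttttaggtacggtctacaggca

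The Aft1 core was present in this window of 77 of 5985 promoters (1.29%), and in 5 of the 7 siderophore genes (71.4%). Of the other iron uptake and regulator lists, 2 of 7 surface genes (28.6%), 3 of 10 vacuolar, mitochondrial and low-affinity transport genes (30%) and 2 of 12 regulators (16.7%) had it. The core began 182 bases before the start of FIT1, 249 and 131 bases before FIT2, 184 bases before FIT3, 188 bases before SIT1, 145 bases before LSO1, and 193 and 137 bases before ENB1. It also began 213 bases before FET4, a gene lower in gsh1Δ than in cup1F8*. The Zap1 element was present in 5 of 5985 promoters (0.0835%), among them 3 of the 20 zinc genes: ZRT1 at 204 bases, ZRG17 at 84 bases and MCD4 at 104 bases before the start. PAC was present in 55 of 104 ribosome biogenesis promoters (52.9%) against 3.94% of all promoters, and RRPE in 61 of 104 (58.7%) against 6.98%. A match is a description of the letters in this window, and no binding was measured.

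The depth and the strain labels were checked next. Reads counted on open reading frames numbered from 2917138 to 4344857 per gsh1Δ library and from 8349051 to 10133258 per cup1F8* library. The level that 3 counts stand for was at most 1.03 CPM (counts scaled to a library total of 1e6) in gsh1Δ and at most 0.359 CPM in cup1F8*, and covers counting error only. GSH1 (YJL101C) had 0 counts in all 3 gsh1Δ libraries, against 164, 151, 169.9 and 163 CPM in cup1F8*. Its level was at least 599-fold lower in gsh1Δ, with 3 counts over the 3 gsh1Δ libraries as the floor. CUP1-1 and CUP1-2 were listed at 0 in every SCEG library, WT included, so the counts do not check the cup1F8* label. Read shares on identifiers outside the R64 annotation were 0.244% to 0.258% in gsh1Δ and 0.433% to 0.463% in cup1F8*. The deleted markers LEU2, MET17 (met15Δ0) and URA3 averaged below 0.2 CPM in all 6 strains. STE2, the receptor that marks MATa cells, averaged 113 CPM in gsh1Δ and 151 CPM in cup1F8*, and SPO11, a meiotic gene, 2.57 CPM in gsh1Δ and 4.27 CPM in cup1F8*.

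Testing covered 5917 genes, and gsh1Δ had 2146 above cup1F8* (36.3%) and 2129 beneath it (36.0%), at a Benjamini-Hochberg adjusted p below 0.05 in edgeR's quasi-likelihood test. Changes of more than 1 on the log2 scale were called for 674 higher genes (11.4%) and 533 lower genes (9.01%). The median log2 fold change over all genes was -0.00287. In the same test, 1436 of 5678 genes (25.3%) were called in gsh1Δ against WT, a count that dropped to 900 without gsh1Δ library 1, and 4078 of 5904 (69.1%) in cup1F8* against WT. Over all tested genes, 887 (15%) were lower and 975 (16.5%) were higher in every one of the 8 cup1F8* set libraries than in every one of the 12 others, 31.5% in all. Against that background a call alone says little about a gene, so levels, sizes and the WT level are given beside the calls. A level is in CPM scaled over the 20 SCEG libraries, and a fold change is from the fit of its own pair of strains, as a log2 value ± its standard error (SE). Genes written as higher, lower, risen or fallen passed the test unless said otherwise.

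The genes for iron uptake were higher in gsh1Δ than in cup1F8* almost throughout. Of the 7 genes for iron reduction and uptake at the cell surface, 6 were higher (36.3% of all genes were) and 1 was lower (36.0% of all genes), with a median log2 fold change of 1.1. All 7 genes for binding and import of siderophores, the iron chelators that microbes secrete, were higher, with a median of 2.32. FIT1 (YDR534C), a cell wall mannoprotein that retains siderophore-bound iron, had 951, 649.9 and 916 CPM in gsh1Δ, against 52.7, 18.8, 27.2 and 45.0 CPM in cup1F8*. These values did not overlap, and the fold change was 4.55 ± 0.27 on the log2 scale (SE, edgeR adjusted p = 1.58e-08). WT libraries had 16.5, 13.97 and 7.85 CPM, so that the cup1F8* mean stood between gsh1Δ and WT.

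**Figure D1:**
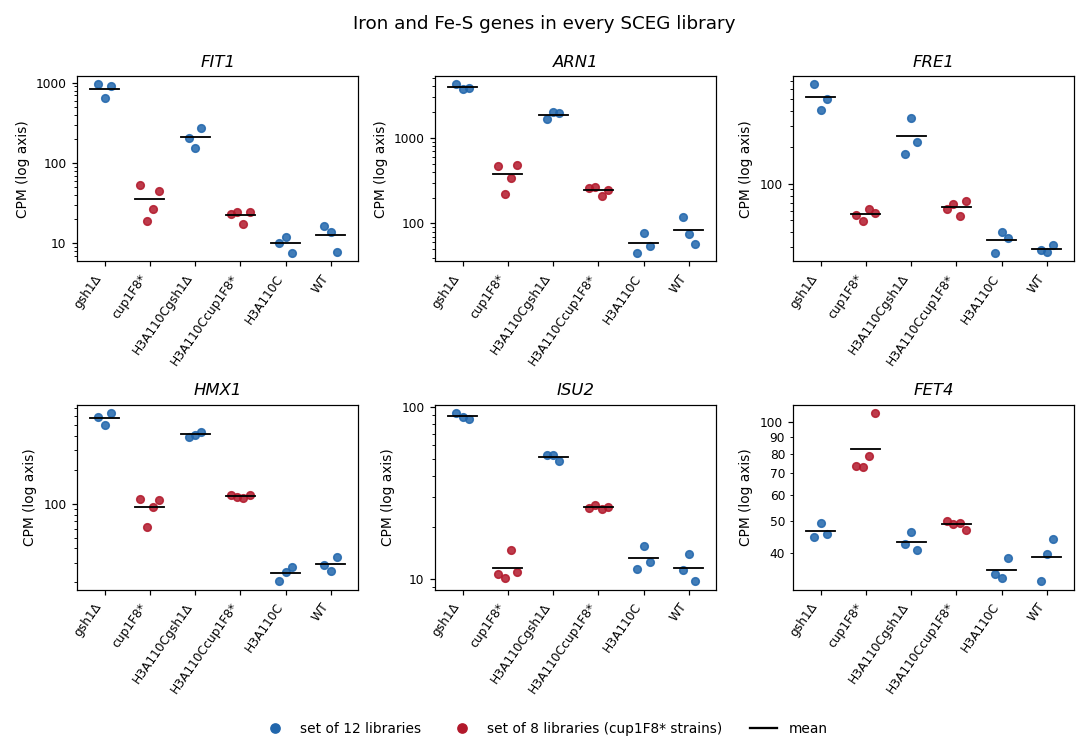
Levels of 6 iron and Fe-S genes in each SCEG library (vertical axis, CPM on a log scale) for the 6 strains, with gsh1Δ left of cup1F8* and WT last. Points are libraries and bars are strain means; FIT1, ARN1, FRE1, HMX1 and ISU2 stood higher in every gsh1Δ library than in every cup1F8* library, and FET4 lower.

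ARN1 (YHL040C), a siderophore transporter, had 4182, 3663 and 3848 CPM in gsh1Δ, against 469.6, 223, 335 and 486 CPM in cup1F8*. The lowest gsh1Δ library was far above the highest cup1F8* library, and the fold change was 3.37 ± 0.22 on the log2 scale (SE, edgeR adjusted p = 3.32e-08). FIT3 (YOR383C), another of the cell wall siderophore mannoproteins, averaged 18440 ± 1170 CPM in gsh1Δ and 3701 ± 1610 CPM in cup1F8* (SD, n = 3 and 4), against 237 CPM in WT. FIT2 (YOR382W), the third of these mannoproteins, differed by 1.95 ± 0.21 on the log2 scale, and the transporters ARN2 (YHL047C), SIT1 (YEL065W) and ENB1 (YOL158C) by 1.85 ± 0.24, 1.03 ± 0.20 and 2.33 ± 0.16. Against WT all 7 siderophore genes were higher in gsh1Δ, with a median of 5.69, where 12.5% of all genes were higher, and all 7 were higher in cup1F8*, with a median of 2.8, where 34.3% of all genes were. In all 7 the cup1F8* mean lay between those of gsh1Δ and WT. None separated the 8 cup1F8* set libraries from the 12 others. This largely follows from the means, as gsh1Δ and WT are both among the 12, and so is no check for a shift between sets.

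Among the surface genes, the metalloreductase FRE1 (YLR214W), which reduces iron and copper outside the cell, had 655, 405 and 496 CPM in gsh1Δ, against 55.5, 49.4, 61.7 and 58.0 CPM in cup1F8*. The groups lay well apart, at 3.21 ± 0.14 on the log2 scale (SE, edgeR adjusted p = 1.82e-09). The siderophore reductases FRE2 (YKL220C) and FRE3 (YOR381W) were higher by 2.58 ± 0.21 and 3.08 ± 0.20. The copper-dependent iron oxidase FET3 (YMR058W) and its permease partner FTR1 (YER145C), which together form the high-affinity uptake system, differed far less. FET3 had 7192, 6379.8 and 7163 CPM in gsh1Δ, against 5138, 3318, 4332 and 4999.5 CPM in cup1F8*, all far above the 429 CPM of WT. Its fold change between the mutants was 0.64 ± 0.15 on the log2 scale (SE, edgeR adjusted p = 0.00162) and lost the call once trends with GC content and length were removed (edgeR adjusted p = 0.0619), and that of FTR1 1.10 ± 0.14 on the log2 scale (SE, edgeR adjusted p = 1.76e-05). FRE4 (YNR060W), another reductase of the family, was the exception: it averaged 9.02 ± 1.76 CPM in gsh1Δ and 23.5 ± 0.928 CPM in cup1F8* (SD, n = 3 and 4), at -1.35 ± 0.15 on the log2 scale.

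Genes that move iron within the cell were more divided. Of 10 genes for vacuolar, mitochondrial and low-affinity iron transport, 7 were higher in gsh1Δ and 2 were lower, with a median of 0.746. The shares over all genes were 36.3% and 36.0%. FTH1 (YBR207W) and FET5 (YFL041W), the permease and oxidase that release iron from the vacuole, rose by 1.44 ± 0.10 and 1.39 ± 0.075, and MRS4 (YKR052C), an iron carrier of the inner mitochondrial membrane, by 1.17 ± 0.11. FET4 (YMR319C), the low-affinity transporter of iron, zinc and copper, went the other way. It had 44.8, 49.1 and 45.7 CPM in gsh1Δ, against 73.3, 73.0, 78.7 and 106 CPM in cup1F8*, and its fold change was -0.83 ± 0.14 on the log2 scale (SE, edgeR adjusted p = 0.000156). SMF1 (YOL122C), a transporter of manganese and other divalent metals, averaged 121 ± 7.42 CPM in gsh1Δ and 63.6 ± 2.78 CPM in cup1F8* (SD, n = 3 and 4), at 0.94 ± 0.071. CCC1 (YLR220W), which loads iron into the vacuole, averaged 121 CPM in gsh1Δ, 128 CPM in cup1F8* and 200.1 CPM in WT, and did not pass the test between the mutants, at -0.073 ± 0.15 on the log2 scale (SE, edgeR adjusted p = 0.67).

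Of 12 iron regulators and iron-sparing genes, 10 were higher and 1 was lower in gsh1Δ, beside 36.3% and 36.0% of all genes. The median was 0.8. The largest rise of the list, and the second largest over all genes, was that of LSO1 (YJR005C-A), a small protein induced by iron starvation. LSO1 had 81.5, 72.2 and 103 CPM in gsh1Δ, against 0.803, 0.325, 0.843 and 0.589 CPM in cup1F8* and 0 in all 3 WT libraries. The cup1F8* values lay near the level that 3 counts stand for, at most 0.359 CPM there, so the size of the difference is uncertain. The fold change between the mutants was 7.01 ± 0.20 on the log2 scale (SE, edgeR adjusted p = 1.21e-10), and against WT the gsh1Δ level was at least 379-fold higher, with 3 counts over the WT libraries as the floor. HMX1 (YLR205C), a heme oxygenase that recovers iron from heme, averaged 574 ± 68.1 CPM in gsh1Δ and 92.8 ± 21.9 CPM in cup1F8* (SD, n = 3 and 4), at 2.63 ± 0.16. TIS11 (YLR136C), also known as CTH2, which destabilizes mRNAs of iron-using proteins, had 779, 712 and 669.7 CPM in gsh1Δ, against 332, 157, 258 and 326 CPM in cup1F8*, where WT averaged 16.7 CPM. Both mutants stood above WT, and they differed by 1.43 ± 0.19. AFT1 (YGL071W), the iron regulator itself, was 0.60 ± 0.088 higher, YAP5 (YIR018W), the regulator of genes for high iron, 1.32 ± 0.11 higher, and FRA1 (YLL029W), which works in the signal that restrains Aft1, -0.24 ± 0.073, below cup1F8*.

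The machinery that builds Fe-S clusters was partly higher in gsh1Δ. Of 19 genes of mitochondrial assembly, 10 were higher and 2 were lower, with a median of 0.278, and of 10 genes of the cytosolic machinery 8 were higher and 1 was lower, with a median of 0.598. ISU2 (YOR226C), one of a pair of scaffold proteins on which clusters are made, had 92.6, 87.5 and 85.3 CPM in gsh1Δ, against 10.7, 10.2, 14.7 and 10.9 CPM in cup1F8*. Its fold change was 2.93 ± 0.11 on the log2 scale (SE, edgeR adjusted p = 1.22e-09), and the cup1F8* level was at that of WT, 11.3, 13.97 and 9.68 CPM. ISU1 (YPL135W), its partner, averaged 385 ± 19.2 CPM in gsh1Δ and 147 ± 30.4 CPM in cup1F8* (SD, n = 3 and 4), at 1.40 ± 0.13, against 222 CPM in WT. The pair is similar in sequence, and the split of reads between them is uncertain. ATM1 (YMR301C), the exporter of the mitochondrial signal to the cytosol, had 164, 165 and 134 CPM in gsh1Δ, against 82.2, 81.3, 84.4 and 88.4 CPM in cup1F8*. It was higher in gsh1Δ by 0.89 ± 0.080 but differed from WT by only 0.037 ± 0.10 in gsh1Δ (edgeR adjusted p = 0.824), while cup1F8* stood -0.90 ± 0.059 from WT. GRX5 (YPL059W), the glutaredoxin that passes clusters on with the help of glutathione, averaged 72.0 CPM in gsh1Δ, 85.8 CPM in cup1F8* and 109 CPM in WT. Its difference of -0.25 ± 0.094 on the log2 scale (SE, edgeR adjusted p = 0.0308) lost the call without any one of the 3 gsh1Δ libraries or without cup1F8* library 2, where adjusted p lay between 0.0506 and 0.108. In the cytosolic machinery the largest rise was that of TAH18 (YPR048W), the reductase that feeds electrons to the first step, at 1.71 ± 0.083, and the one fall that of MET18 (YIL128W), a targeting factor, at -0.57 ± 0.079. Of the 10 cytosolic genes, 4, TAH18 among them, were lower in all libraries of the cup1F8* set than in all others, and 1, MET18, was higher. Of the 19 mitochondrial genes, 3 were lower in all libraries of that set, and 15% of all genes were. The mean log2 CPM over the cytosolic list was at most 5.529 in that set and at least 5.627 in the 12 others. Over the mitochondrial list these values were 6.08 and 6.081, nearly equal.

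The proteins that receive Fe-S clusters did not move as one group. Of 25 clients, 12 were higher (48%) and 10 were lower (40%) in gsh1Δ, where 36.3% and 36.0% of all genes were. Their median of 0.291 was 0.0413 without gsh1Δ library 2, 0.426 without gsh1Δ library 3 and 0.122 once trends with GC content and length were removed. In all libraries of the cup1F8* set, 8 of the 25 were lower than in all others, as were 15% of all genes. The clients of the respiratory chain, the tricarboxylic acid cycle and biotin synthesis were lower in gsh1Δ. ACO1 (YLR304C), mitochondrial aconitase, had 1074, 1224 and 1042 CPM in gsh1Δ, against 1627, 2452, 1808 and 1923 CPM in cup1F8* and 4860.5, 4485 and 4244 CPM in WT. Both mutants lay below every WT library, gsh1Δ lowest, and the difference between them was -0.80 ± 0.14 on the log2 scale (SE, edgeR adjusted p = 0.000159). SDH2 (YLL041C), the cluster-bearing subunit of succinate dehydrogenase, differed by -0.93 ± 0.15, and RIP1 (YEL024W), the Rieske protein of complex III, by -0.59 ± 0.11. LEU1 (YGL009C), isopropylmalate isomerase of leucine synthesis, averaged 88.0 ± 25.9 CPM in gsh1Δ and 209 ± 37.1 CPM in cup1F8* (SD, n = 3 and 4), at -1.23 ± 0.18, against 389 CPM in WT. BIO2 (YGR286C), biotin synthase, had 20.3, 30.7 and 23.7 CPM in gsh1Δ, against 96.6, 87.3, 111 and 109 CPM in cup1F8*, and its cup1F8* mean was close to the 113 CPM of WT. That difference was the largest fall of the list, at -2.01 ± 0.14 on the log2 scale (SE, edgeR adjusted p = 4.74e-08).

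Several clients of ribosome recycling, DNA replication and tRNA modification stood the other way. The tRNA modification enzymes ELP3 (YPL086C) and TYW1 (YPL207W) were higher by 1.04 ± 0.092 and 1.06 ± 0.11, the DNA polymerase subunits POL1 (YNL102W) and POL3 (YDL102W) by 0.74 ± 0.087 and 0.63 ± 0.075, and the ribosome recycling ATPase RLI1 (YDR091C) by 0.64 ± 0.12. Among other replication enzymes the helicase DNA2 (YHR164C) was higher, at 0.59 ± 0.073, and the primase subunit PRI2 (YKL045W) lower, at -0.40 ± 0.086. In ELP3, TYW1, POL1 and POL3 every library of the cup1F8* set was below every other SCEG library. Against WT, 16 clients were lower and 2 higher in gsh1Δ, and 19 lower and 3 higher in cup1F8*, where 12.8% of all genes were lower in gsh1Δ and 34.8% in cup1F8*.

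Pathways that use iron differed from each other. Of 9 heme synthesis genes, 3 were higher (33.3%) and 3 lower (33.3%), near the 36.3% and 36.0% of all genes. HEM15 (YOR176W), the ferrochelatase that inserts iron, stood at -1.45 ± 0.15 and HEM3 (YDL205C), an early enzyme, at 0.58 ± 0.081. Of 12 measured genes for branched-chain amino acids, 9 were higher (75%) and 1, LEU1, was lower (8.33%), led by ILV5 (YLR355C), acetohydroxyacid reductoisomerase. Against WT, 1 was higher and 6 were lower in gsh1Δ (median -0.391), where 12.5% and 12.8% of all genes were. In cup1F8* 11 were lower than in WT (median -1.14), where 34.8% of all genes were. In 4 of the 12, every library of the cup1F8* set was below every other SCEG library, as in 15% of all genes. ILV5 averaged 1646 ± 204 CPM in gsh1Δ and 513 ± 47.8 CPM in cup1F8* (SD, n = 3 and 4), a difference of 1.69 ± 0.11, and 1624 CPM in WT. The 5 biotin genes split by role. Biotin import was higher in gsh1Δ, with VHT1 (YGR065C), the biotin transporter, at 679, 517 and 551 CPM in gsh1Δ, against 163, 121, 152 and 208 CPM in cup1F8*, and BIO5 (YNR056C), which takes up a biotin precursor, higher by 1.84 ± 0.21. Biotin synthesis was lower, with BIO3 (YNR058W) at -1.27 ± 0.26 and BIO4 (YNR057C) at -0.58 ± 0.24 beside BIO2. The fold change of VHT1 was 1.86 ± 0.15 on the log2 scale (SE, edgeR adjusted p = 2.07e-07).

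The zinc genes were mostly lower in gsh1Δ than in cup1F8*, and held the largest fall over all genes after that of GSH1. Of 20 genes of zinc homeostasis and Zap1 targets, 12 were lower in gsh1Δ than in cup1F8* (60%) and 4 were higher (20%). The shares over all genes were 36.0% and 36.3%, and the median of the list was -0.661. ZPS1 (YOL154W), a cell surface protein induced by low zinc, had 21.7, 17.6 and 15.9 CPM in gsh1Δ, against 3469, 3584, 3099 and 4097 CPM in cup1F8*. The fold change was -7.57 ± 0.17 on the log2 scale (SE, edgeR adjusted p = 3.6e-11), and WT had 15.6, 18.5 and 21.7 CPM, which overlapped gsh1Δ. ZRT1 (YGL255W), the high-affinity zinc transporter, had 64.8, 68.7 and 64.8 CPM in gsh1Δ, against 1021, 1119, 1078 and 1182 CPM in cup1F8*, at -4.05 ± 0.097 on the log2 scale (SE, edgeR adjusted p = 3.6e-11). WT had 65.2, 188 and 187 CPM, of which 1 library was within the gsh1Δ range. ADH4 (YGL256W), an alcohol dehydrogenase induced by low zinc, had 38.6, 43.9 and 30.4 CPM in gsh1Δ, against 313, 601, 408 and 444 CPM in cup1F8*, at -3.53 ± 0.22 on the log2 scale (SE, edgeR adjusted p = 2.23e-08).

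**Figure D2:**
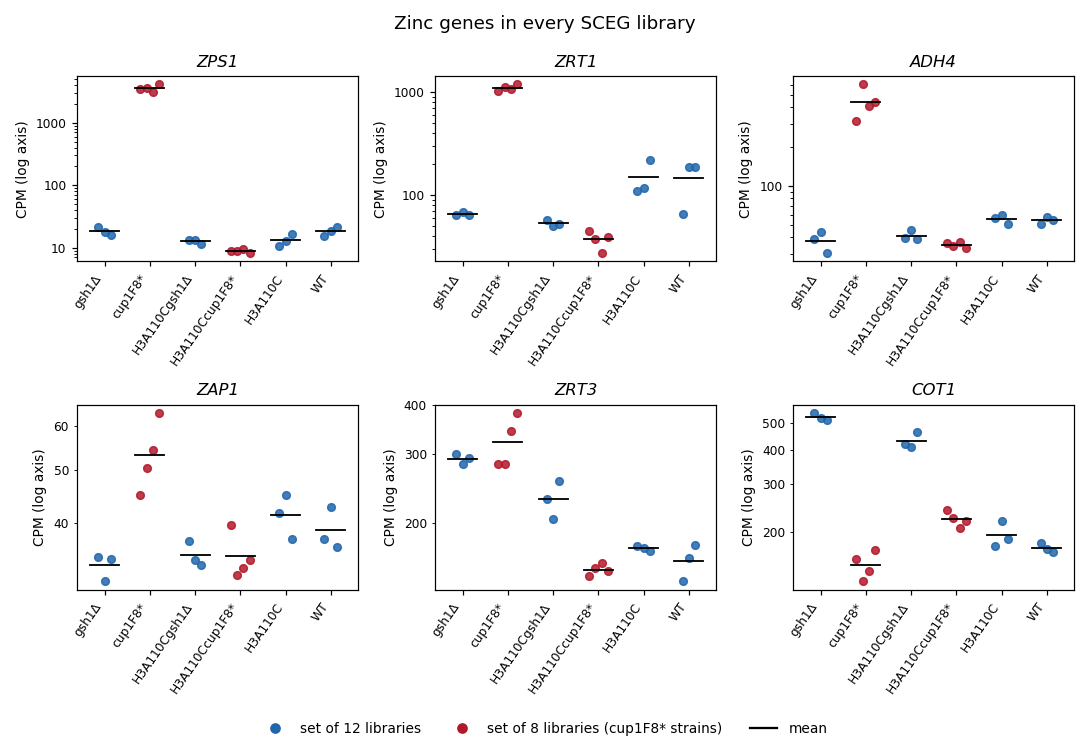
Levels of 6 zinc genes in each SCEG library (vertical axis, CPM on a log scale) for the 6 strains, with gsh1Δ left of cup1F8* and WT last. Points are libraries and bars are strain means; ZPS1, ZRT1 and ADH4 were high in the 4 cup1F8* libraries and in no library of the 5 other strains, H3A110Ccup1F8* included.

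These increases were absent from the other strain of the same sequencing set. ZPS1 had 8.85, 8.87, 9.38 and 8.28 CPM in H3A110Ccup1F8*, ZRT1 averaged 37.4 ± 7.18 CPM there and ADH4 35.1 ± 1.82 CPM (SD, n = 4), all far below cup1F8*. Of the 20 zinc genes, 1 (DPP1) separated the sequencing sets, beside 31.5% of all genes. ZAP1 (YJL056C), the regulator, had 34.6, 31.2 and 34.3 CPM in gsh1Δ, against 44.9, 50.2, 54.2 and 63.5 CPM in cup1F8*, at -0.67 ± 0.13 on the log2 scale (SE, edgeR adjusted p = 0.000366). The low-affinity transporter ZRT2 (YLR130C) was lower in gsh1Δ, at -0.89 ± 0.13. Of the 3 genes with the Zap1 element, ZRT1 and MCD4 (YKL165C), an enzyme of GPI anchor synthesis, were lower in gsh1Δ, MCD4 at -0.996 ± 0.11, and ZRG17 (YNR039C), a zinc transporter subunit, averaged 67.4 CPM in gsh1Δ and 66.6 CPM in cup1F8*, which did not pass the test (log2 fold change 0.035 ± 0.082, edgeR adjusted p = 0.711). ZRT3 (YKL175W), which releases zinc from the vacuole, averaged 292 CPM in gsh1Δ, 323 CPM in cup1F8* and 161 CPM in WT. It did not pass the test between the mutants, gained the call with total counts only (-0.25, edgeR adjusted p = 0.046) and with trends of GC content and length removed (-0.35, edgeR adjusted p = 0.0085), and passed the test in each against WT, at 0.88 ± 0.097 for gsh1Δ and 0.97 ± 0.12 for cup1F8*. COT1 (YOR316C), a vacuolar zinc and cobalt transporter that is also an Aft1 target, was the largest rise of the list, with 544, 519.7 and 514 CPM in gsh1Δ, against 159.7, 133, 145 and 172 CPM in cup1F8*, at 1.79 ± 0.088 on the log2 scale (SE, edgeR adjusted p = 4.1e-09).

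The copper genes were divided. Of 18 measured, 9 were higher (50%) and 6 lower (33.3%), where 36.3% and 36.0% of all genes were. Their median of 0.267 changed sign, to -0.0464, once trends with GC content and length were removed. SOD1 (YJR104C), the copper-zinc superoxide dismutase, had 1934, 1717 and 2060.0 CPM in gsh1Δ, against 819, 906, 993 and 771 CPM in cup1F8*. The groups did not overlap, at 1.13 ± 0.10 on the log2 scale (SE, edgeR adjusted p = 7e-07), and cup1F8* was near the WT mean of 939 CPM. Its copper chaperone CCS1 (YMR038C) was higher by 0.92 ± 0.074, and the copper importer CTR1 (YPR124W) by 0.94 ± 0.16. CRS5 (YOR031W), the second metallothionein of budding yeast, had 31.3, 33.7 and 33.6 CPM in gsh1Δ, against 48.4, 49.4, 45.6 and 59.7 CPM in cup1F8* and 13.5 CPM in WT. It was lower in gsh1Δ, at -0.62 ± 0.11, where both mutants stood above WT. PIC2 (YER053C), a mitochondrial copper and phosphate carrier, was the largest fall, at -0.91 ± 0.17.

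Of 20 measured genes of glutathione synthesis, transport and use, 9 were higher (45%) and 7 lower (35%), GSH1 among the lower ones. Over all genes 36.3% were higher and 36.0% lower. GSH2 (YOL049W), the second enzyme of the pathway, averaged 148 CPM in gsh1Δ and 174 CPM in cup1F8*, at -0.22 ± 0.081. GTT2 (YLL060C), a glutathione S-transferase, had 86.5, 136 and 96.3 CPM in gsh1Δ, against 16.4, 15.3, 18.3 and 17.3 CPM in cup1F8*, at 2.67 ± 0.14 on the log2 scale (SE, edgeR adjusted p = 7.58e-09). DUG3 (YNL191W), of the cytosolic complex that breaks glutathione down, had 60.8, 68.2 and 69.4 CPM in gsh1Δ, against 10.9, 11.6, 10.8 and 9.72 CPM in cup1F8*. The WT mean of 33.8 CPM lay between them, and the difference was 2.62 ± 0.10 on the log2 scale (SE, edgeR adjusted p = 1.22e-09). The importer OPT1 (YJL212C) and the vacuolar exporter YCF1 (YDR135C) were higher in gsh1Δ by 1.03 ± 0.18 and 0.65 ± 0.067, and the glutaredoxins GRX1 (YCL035C) and GRX2 (YDR513W) were lower, at -0.64 ± 0.11 and -0.75 ± 0.089. Of 20 thioredoxins, peroxidases and other oxidant defence genes, 9 were higher (45%) and 5 lower (25%). The thioredoxin peroxidase AHP1 (YLR109W) rose most, by 1.53 ± 0.11, and the cytosolic catalase CTT1 (YGR088W) fell most, with 12.5, 13.4 and 21.6 CPM in gsh1Δ, against 110.3, 216, 170.0 and 147 CPM in cup1F8* (log2 fold change -3.39 ± 0.26, edgeR adjusted p = 1.3e-07).

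Sulfur assimilation was higher in gsh1Δ with few exceptions. Of 27 measured genes, 25 were higher (92.6%) and 2 (SUL1 and CBF1) were lower (7.41%), beside 36.3% and 36.0% of all genes. The median was 1.39. MUP1 (YGR055W), the high-affinity methionine permease, had 1339.7, 1365 and 1378 CPM in gsh1Δ, against 168, 174, 165 and 215 CPM in cup1F8*. WT lay between, at 398, 564 and 375 CPM, and the difference between the mutants was 2.92 ± 0.10 on the log2 scale (SE, edgeR adjusted p = 6.27e-10). CYS3 (YAL012W), which makes cysteine, averaged 813 ± 143 CPM in gsh1Δ and 147 ± 19.3 CPM in cup1F8* (SD, n = 3 and 4), at 2.47 ± 0.12, and 419.5 CPM in WT. MET2 (YNL277W) and STR3 (YGL184C), enzymes of homocysteine synthesis, differed by 2.65 ± 0.076 and 2.67 ± 0.20, and the S-adenosylmethionine synthetase SAM1 (YLR180W) by 2.33 ± 0.12. Against WT, 19 of 27 genes were higher and 1 lower in gsh1Δ (median 0.78), and 3 higher and 16 lower in cup1F8* (median -0.592). Over all genes 12.5% were higher and 12.8% lower in gsh1Δ, and 34.3% higher and 34.8% lower in cup1F8*. In 6 of the 27, SAM1, SAM2 and CYS3 among them, every library of the cup1F8* set was below every other SCEG library, as in 15% of all genes. The mean log2 CPM over the list was at most 6.17 in that set and at least 6.26 in the others.

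**Figure D3:**
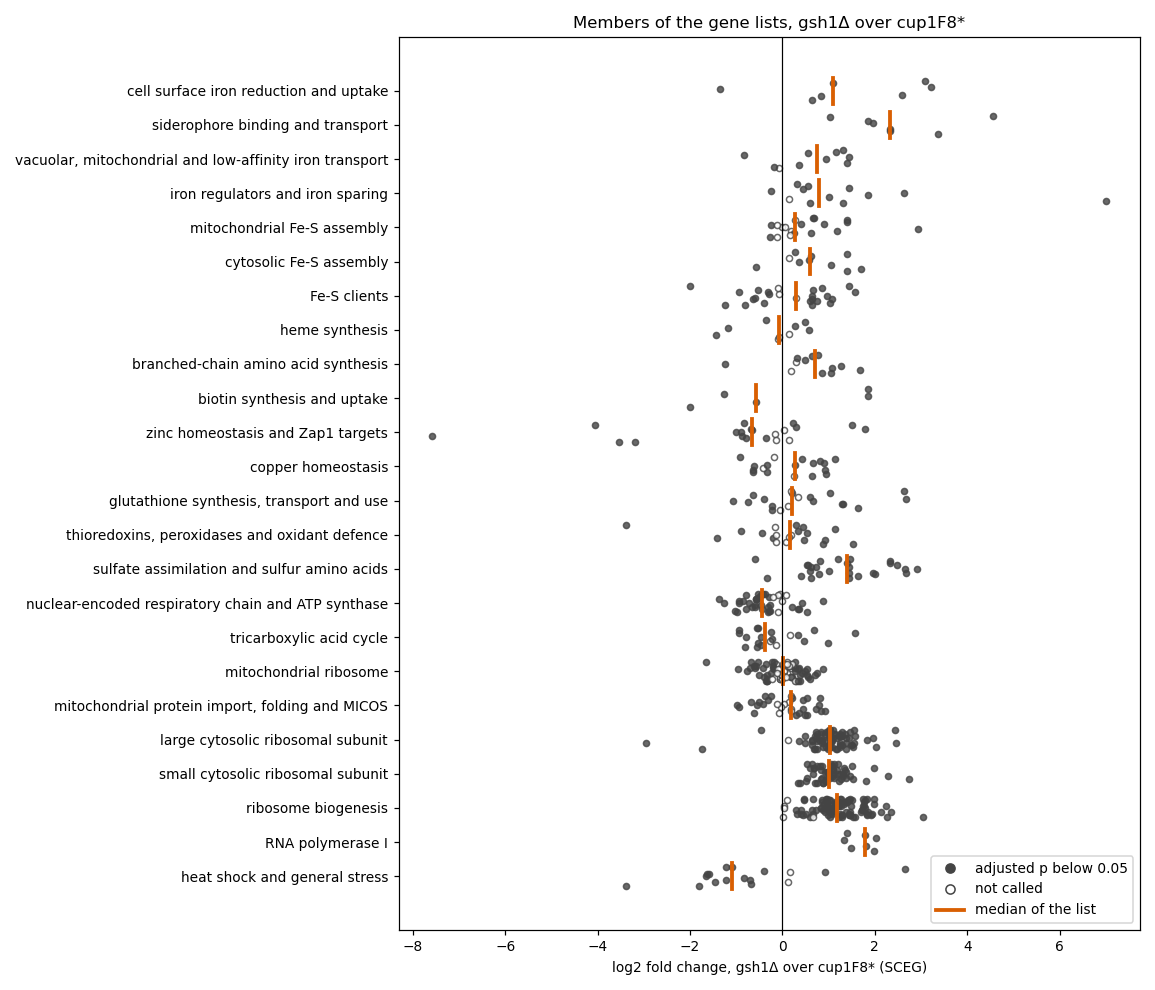
Log2 fold change of gsh1Δ over cup1F8* (horizontal axis) for each tested member of 24 gene lists (rows), 1 point a gene and a bar at each list's median, with GSH1 left out of the drawing. Siderophore, RNA polymerase I and small ribosomal subunit genes were all above 0, and most respiratory chain, zinc and stress genes were below it.

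Mitochondrial genes fell into parts. Of 41 nuclear-encoded genes of the respiratory chain and ATP synthase, 29 were lower (70.7%) and 6 higher (14.6%) in gsh1Δ. The shares over all genes were 36.0% and 36.3%, and the median of the list was -0.452. Averaged over the list, the level was 8.32 ± 0.012 log2 CPM in gsh1Δ and 8.71 ± 0.10 log2 CPM in cup1F8* (SD, n = 3 and 4), against 8.96 ± 0.087 in WT. ATP20 (YPR020W), a subunit of ATP synthase, was lower, at -1.27 ± 0.12, COX7 (YMR256C) and COX6 (YHR051W) of cytochrome c oxidase at -1.04 ± 0.099 and -0.94 ± 0.11, and CYC7 (YEL039C), the minor cytochrome c, at 4.70 CPM in gsh1Δ and 11.8 CPM in cup1F8*, at -1.37 ± 0.25. CYC1 (YJR048W), the major cytochrome c, was higher in gsh1Δ than in cup1F8* by 0.54 ± 0.15, although gsh1Δ stood -1.50 ± 0.17 from WT. NDE1 (YMR145C), an external NADH dehydrogenase, rose most, with 1974, 1752 and 1889 CPM in gsh1Δ, against 998, 991, 962 and 1133 CPM in cup1F8* (log2 fold change 0.88 ± 0.091, edgeR adjusted p = 2.11e-06), and gsh1Δ was near the WT mean of 1799 CPM.

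Of 20 genes of the tricarboxylic acid cycle, 12 were lower (60%) and 5 higher (25%), beside 36.0% and 36.3% of all genes. Their median was -0.367. LSC2 (YGR244C), a subunit of succinyl-CoA ligase, fell most, at -0.93 ± 0.093, while IDH1 (YNL037C) and IDH2 (YOR136W), the subunits of NAD-dependent isocitrate dehydrogenase, were higher by 0.98 ± 0.099 and 0.68 ± 0.092. Against WT, 19 of 20 were lower in gsh1Δ and 14 in cup1F8*, where 12.8% and 34.8% of all genes were. Of the 73 genes of the mitochondrial ribosome, 20 were higher (27.4%) and 24 lower (32.9%), below the 36.3% and 36.0% of all genes. Their median of 0.0152 changed sign, to -0.096, when libraries were scaled by total counts only. Against WT, 61 of 72 were lower in gsh1Δ and 61 of 73 in cup1F8*, beside the same 12.8% and 34.8% of all genes. MRPL39 (YML009C) rose most, by 0.88 ± 0.11. MRPL38 (YKL170W) fell most but had at most 3 counts in any gsh1Δ library, and its call was lost without gsh1Δ library 2 (edgeR adjusted p = 0.0788). Of 31 genes of protein import, folding and inner membrane organization, 13 were higher (41.9%) and 10 lower (32.3%), near the 36.3% and 36.0% of all genes. TIM12 (YBR091C), an essential subunit of an import complex, rose most, at 0.92 ± 0.15, and TOM7 (YNL070W), a small subunit of the outer membrane pore, fell most, at -0.97 ± 0.16. MIC19 (YFR011C), of the complex that shapes cristae, had 17.2, 12.4 and 16.3 CPM in gsh1Δ, against 21.1, 24.0, 23.0 and 21.4 CPM in cup1F8*, at -0.55 ± 0.14 on the log2 scale (SE, edgeR adjusted p = 0.00282), while it averaged 54.9 CPM in H3A110Cgsh1Δ, 74.9 CPM in H3A110Ccup1F8* and 75.4 CPM in H3A110C, against 15.8 CPM in WT. The calls of TOM7, MIC19, COX1 and MET18 were lost once trends with GC content and length were removed. MIC60 (YKR016W), of the MIC19 complex, was lower, at -0.95 ± 0.085.

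The mitochondrial genome encodes 8 measured proteins, whose mRNAs were scarce in these poly-A libraries. Only COX1 and OLI1 passed the filter on low counts, and both were lower in gsh1Δ. COX1 (Q0045), a core subunit of cytochrome c oxidase, had 13.4, 8.18 and 5.31 CPM in gsh1Δ, against 18.2, 15.3, 21.1 and 23.5 CPM in cup1F8* (log2 fold change -1.06 ± 0.24, edgeR adjusted p = 0.00175), and the WT mean was 2.97 CPM. OLI1 (Q0130), the ring subunit of ATP synthase, averaged 0.928 ± 0.567 CPM in gsh1Δ and 8.21 ± 1.30 CPM in cup1F8* (SD, n = 3 and 4) and was higher in all libraries of the cup1F8* set than in all others. COX2, COX3, COB, ATP6, ATP8 and VAR1 had at most 3 counts in any gsh1Δ library and at most 8 in any cup1F8* library, and were not tested.

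Cytosolic ribosome genes were higher in gsh1Δ than in cup1F8* nearly without exception. Of 82 genes of the large subunit, 79 passed the filter on low counts, 75 were higher and 3 lower, with a median of 1.04, and all 56 genes of the small subunit were higher, with a median of 1.02. Of 104 ribosome biogenesis genes 99 were higher and the rest were not called (median 1.18). All 7 genes of RNA polymerase I, which makes ribosomal RNA, were higher (median 1.78). The share higher over all genes was 36.3%. Averaged over the large subunit genes, the level was 8.41 ± 0.11 log2 CPM in gsh1Δ and 7.42 ± 0.028 in cup1F8* (SD, n = 3 and 4), against 8.67 ± 0.047 in WT. The gsh1Δ mean stood somewhat under that of WT, and the cup1F8* mean far under both. Against WT, 23 of 77 large subunit genes were called in gsh1Δ, each lower (median -0.252), and 75 of 79 lower and 2 higher in cup1F8* (median -1.34). Over all genes 12.8% were lower than in WT in gsh1Δ and 34.8% in cup1F8*.

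The same genes separated the sequencing sets. In 73 of the 79 large subunit genes, 55 of the 56 small subunit genes, 81 of the 104 biogenesis genes and all 7 RNA polymerase I genes, each of the 8 libraries with cup1F8* was below each of the 12 others, where this held for 15% of all genes. Over the large subunit genes H3A110Cgsh1Δ averaged 8.37 ± 0.26 log2 CPM, and H3A110Ccup1F8*, which shares the set of cup1F8*, 7.64 ± 0.017 (SD, n = 3 and 4). Strain and sequencing set cannot be told apart here.

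**Figure D4:**
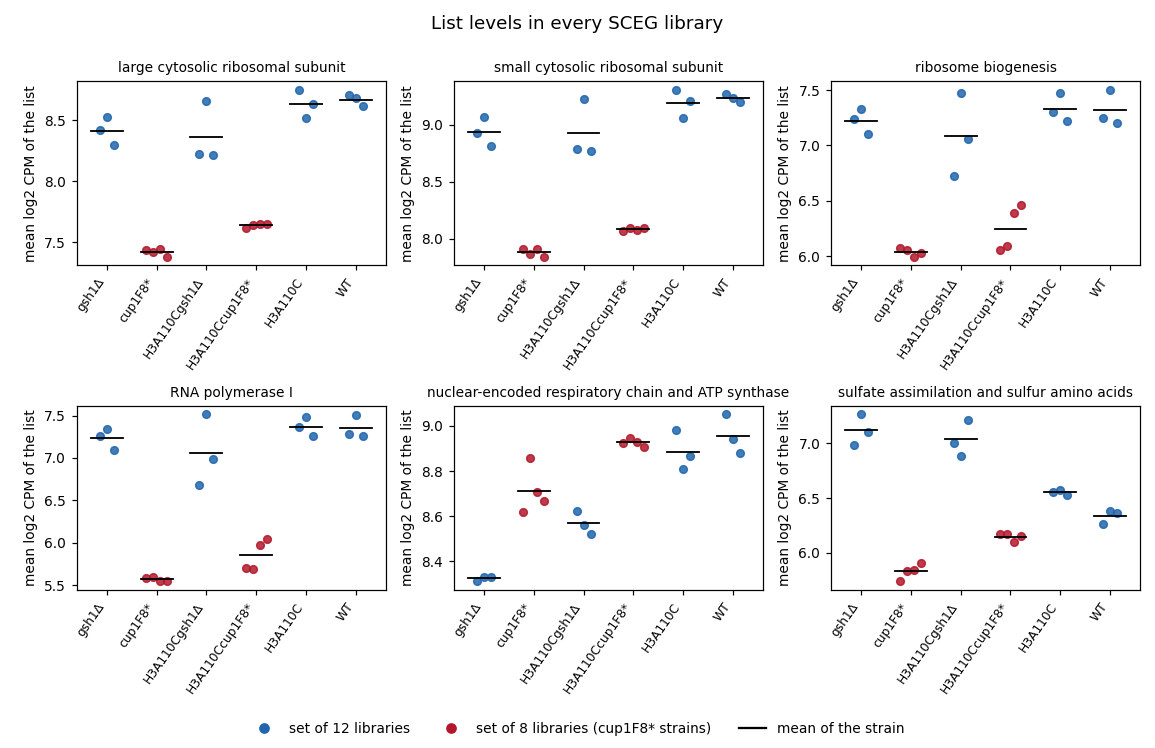
Mean log2 CPM over the members of 6 gene lists (vertical axis) in each SCEG library of the 6 strains, 1 point a library and a bar at each strain mean. The 4 ribosome lists and the sulfur list stood lower in all 8 libraries of the cup1F8* set than in the 12 others, and the respiratory chain list did not separate the sets.

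RPA135 (YPR010C), the second largest subunit of RNA polymerase I, had 664, 701 and 560.0 CPM in gsh1Δ, against 165, 159, 151 and 164 CPM in cup1F8* and 712, 839 and 672 CPM in WT. The fold change between the mutants was 2.02 ± 0.086 on the log2 scale (SE, edgeR adjusted p = 1.82e-09). PWP2 (YCR057C), of the small subunit processome, whose promoter holds RRPE 155 bases and PAC 146 bases before the start, had 239.9, 251 and 213 CPM in gsh1Δ, against 50.5, 50.2, 39.4 and 46.1 CPM in cup1F8*, at 2.34 ± 0.094 on the log2 scale (SE, edgeR adjusted p = 1.26e-09). It was chosen after its values were seen. DHR2 (YKL078W), an RNA helicase of the same pathway, was the largest rise among biogenesis genes, at 3.03 ± 0.12. RPL7B (YPL198W) and RPS28B (YLR264W) rose most among the ribosomal proteins, by 2.47 ± 0.12 and 2.74 ± 0.13. Most of these proteins are encoded by near-identical gene pairs, so the split of reads within a pair is uncertain. RPL28 (YGL103W), the largest fall, had at most 4 counts in any gsh1Δ library and averaged 0.633 CPM in gsh1Δ and 5.02 CPM in cup1F8*.

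Heat shock and general stress genes were mostly lower in gsh1Δ than in cup1F8*. Of 17 genes, 13 were lower (76.5%) and 2 higher (11.8%), with a median of -1.08, beside 36.0% and 36.3% of all genes. Of the 17, 6 were higher in all libraries of the cup1F8* set than in all others, as were 16.5% of all genes. The mean log2 CPM over the list was also higher in all libraries of that set. HSP104 (YLL026W), the disaggregase, had 869.6, 556 and 1226 CPM in gsh1Δ, against 2704, 2539.8, 2913 and 2543 CPM in cup1F8* (log2 fold change -1.59 ± 0.20, edgeR adjusted p = 1.24e-05). TPS2 (YDR074W), of trehalose synthesis, and PGM2 (YMR105C), of glycogen synthesis, were lower, at -1.64 ± 0.11 and -1.80 ± 0.25. HSP26 (YBR072W), a small heat shock protein, was the larger of the 2 rises. It had 1454, 791 and 1837 CPM in gsh1Δ, against 230.3, 156, 303 and 177 CPM in cup1F8*, where WT averaged 83.3 CPM. Its log2 fold change was 2.66 ± 0.26 (edgeR adjusted p = 1.15e-06). Against WT, 7 of 17 were higher and 1 lower in gsh1Δ, and 16 higher in cup1F8*. Over all genes 12.5% were higher than in WT in gsh1Δ and 34.3% in cup1F8*. Mating genes of MATa cells were lower in gsh1Δ in 6 of 7 cases (median -0.545), where 36.0% of all genes were. Meiotic genes were lower in 4 of 5 cases (median -1.24). IME1 (YJR094C), the initiator of meiosis, averaged 12.9 CPM in gsh1Δ and 30.6 CPM in cup1F8*, against 8.24 CPM in WT. Of 4 MATalpha genes 1 was higher and 2 were lower (median -0.344). HIS3, the one marker gene that passed the filter on low counts, averaged 51.4 CPM in gsh1Δ and 25.3 CPM in cup1F8*, at 1.04 ± 0.15. The part of stress, mating and meiotic genes in the other differences was not tested.

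The same contrast in cells with H3A110C repeats the comparison with other libraries of the same sets. Among the 5880 genes covered, H3A110Cgsh1Δ had 1763 (30.0%) above H3A110Ccup1F8* and 1800 (30.6%) beneath it, by edgeR's quasi-likelihood test. The surface iron list had 6 higher and 1 lower (median 1.35), the siderophore list 7 higher (median 2.16), sulfur assimilation 21 higher and 1 lower (median 0.853), and the large ribosomal subunit 73 higher and 3 lower (median 0.829). The respiratory chain had 29 lower and 2 higher (median -0.342). The zinc list did not follow: 8 genes were higher and 3 lower in H3A110Cgsh1Δ, with a median of 0.257.

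**Figure D5:**
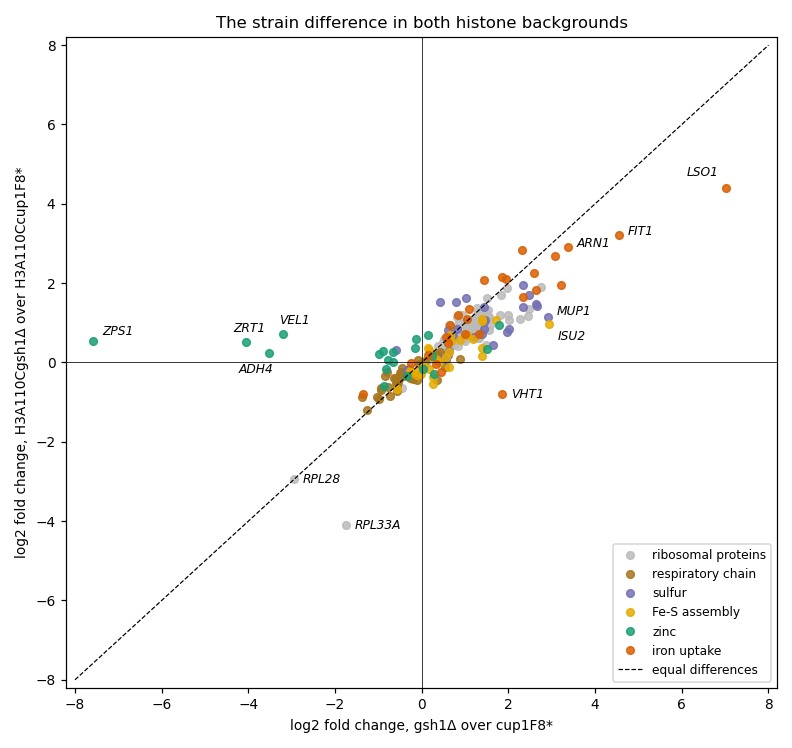
Log2 fold change of gsh1Δ over cup1F8* (horizontal axis) and of H3A110Cgsh1Δ over H3A110Ccup1F8* (vertical axis), 1 point a gene, with named genes labelled. FIT1 and ARN1 lay at high values on both axes, and ZPS1, ZRT1 and ADH4 lay far below 0 on the horizontal axis and near 0 on the vertical one.

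The difference between the 2 backgrounds was tested for each gene by an interaction term, positive where gsh1Δ over cup1F8* was larger with H3A110C. It was called in 1173 of 5955 genes (19.7%), 664 higher (11.2%) and 509 lower (8.55%), by edgeR's quasi-likelihood test. H3A110Cgsh1Δ library 2 stood apart from the other libraries of its strain, and without it 2051 genes were called, 1048 higher and 1003 lower. The zinc list held 13 called higher and 3 lower of 20, with a median difference of 0.707. ZPS1 differed by 8.17 ± 0.20 on the log2 scale (SE, edgeR adjusted p = 2.93e-13), and ZRT1 and ADH4 by 4.60 ± 0.18 and 3.81 ± 0.27. Within the cup1F8* set, the log2 fold change of H3A110Ccup1F8* over cup1F8* was -8.69 ± 0.11 for ZPS1, -4.91 ± 0.12 for ZRT1 and -3.69 ± 0.17 for ADH4, and 13 of the 20 zinc genes were lower (25.9% of all genes were) and 3 higher (24.6%).

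The iron lists differed in how many genes were called between backgrounds. Of the 10 genes of vacuolar, mitochondrial and low-affinity iron transport 2 were higher and 5 lower (median -0.412), FET4 among the higher ones at 0.70 ± 0.18, and of the 12 iron regulators and iron-sparing genes 5 were called, each lower (median -0.277). Of the 7 surface genes 1 was called, FRE1, lower at -1.22 ± 0.28. Of the siderophore genes 2 were called, FIT1 and ENB1, both lower, at -1.30 ± 0.39 and -0.64 ± 0.22. FIT1 averaged 211 ± 59.7 CPM in H3A110Cgsh1Δ and 22.5 ± 3.59 CPM in H3A110Ccup1F8* (SD, n = 3 and 4). LSO1 differed by -2.59 ± 0.44 on the log2 scale (SE, edgeR adjusted p = 0.000949), with 21.0, 19.4 and 22.3 CPM in H3A110Cgsh1Δ and a mean of 0.958 CPM in H3A110Ccup1F8*. In both cup1F8* strains LSO1 had few counts, where 3 counts stand for at most 0.396 CPM, so the size of this value is uncertain. The scaffold genes ISU1 and ISU2 differed by -1.19 ± 0.19 and -1.91 ± 0.14, so that ISU1, at 215 CPM in H3A110Cgsh1Δ and 192 CPM in H3A110Ccup1F8*, was no longer called between these strains. Of the 19 genes of mitochondrial Fe-S assembly 7 were called, each lower. Of the 25 Fe-S clients 1 was called higher and 1 lower. Without H3A110Cgsh1Δ library 2, which stood apart, the counts were 2 higher and 5 lower for Fe-S clients, 1 higher and 7 lower for iron regulators, and 1 higher and 1 lower for surface genes. Over all 5995 genes tested without that library, 1048 were higher and 1003 lower.

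VHT1 changed direction between backgrounds. It had 203, 400.4 and 232 CPM in H3A110Cgsh1Δ, against 449.6, 396, 508 and 593 CPM in H3A110Ccup1F8*, at -0.80 ± 0.23, with 1 library of each strain overlapping, and the difference between backgrounds was -2.62 ± 0.31 on the log2 scale (SE, edgeR adjusted p = 4.42e-05). BIO3 differed by -2.90 ± 0.40, BIO4 by -2.29 ± 0.42 and BIO5 by -2.09 ± 0.29, so that 4 of the 5 biotin genes were called, each lower. BIO3 averaged 12.6 CPM in H3A110Cgsh1Δ and 239.7 CPM in H3A110Ccup1F8*. In the sulfur list 3 genes were higher and 12 lower, with MUP1 at -1.75 ± 0.18, and 6 of 79 large subunit ribosomal genes were called, each lower. The ribosome counts depended on H3A110Cgsh1Δ library 2. Without it 41 of 79 large subunit genes were lower (median -0.332), as were 23 of 56 small subunit genes, where 1 was with it, and 62 of 104 biogenesis genes, where 6 were. Calls rose over all genes too: 1003 of 5995 were lower without that library, and 509 of 5955 with it.

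Beyond the lists, the largest rises in gsh1Δ over cup1F8* were those of YNL143C, LSO1, FIT1, OYE3 and PDC6. YNL143C, an open reading frame of unknown function, averaged 2257 CPM in gsh1Δ and 2.58 CPM in cup1F8*, and likewise 2338 CPM in H3A110Cgsh1Δ and 1.96 CPM in H3A110Ccup1F8*, against 2432 CPM in WT, so it separated the sets and not the mutants from WT. OYE3 (YPL171C), an NADPH oxidoreductase of the old yellow enzyme family, had 319, 437 and 473 CPM in gsh1Δ, against 28.3, 26.0, 34.5 and 23.3 CPM in cup1F8* and 44.2 CPM in WT, at 3.87 ± 0.14 on the log2 scale (SE, edgeR adjusted p = 1.11e-09). PDC6 (YGR087C), a minor pyruvate decarboxylase low in sulfur amino acids, had 77.1, 119 and 93.1 CPM in gsh1Δ, against 7.69, 6.50, 5.71 and 8.55 CPM in cup1F8*, at 3.77 ± 0.17 on the log2 scale (SE, edgeR adjusted p = 2.21e-09). Both stood higher in gsh1Δ than in WT too, by 3.23 ± 0.21 and 2.65 ± 0.27. The largest falls were those of GSH1, ZPS1, YGR174W-A, YOR387C and ZRT1. YGR174W-A, of unknown function, averaged 0.197 CPM in gsh1Δ and 11.5 CPM in cup1F8*, and 11.7 CPM in H3A110Ccup1F8*, and followed the set as YNL143C did. YOR387C averaged 7.84 CPM in gsh1Δ, 226 CPM in cup1F8* and 8.70 CPM in H3A110Ccup1F8*, the pattern of the zinc genes, and reads may be shared with its near-identical partner VEL1 (YGL258W), which was lower in gsh1Δ at -3.20 ± 0.31.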

How the data were processed

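Poly-A RNA was sequenced from bulk cultures of yeast strains, and the deposited values are raw counts per open reading frame that the authors made with HISAT2, strand-specific, on the sacCer3 (R64) genome and with featureCounts. Versions are not given in the sources used here. The table holds 6692 open reading frames, of which 684 identifiers were outside the R64 annotation used for names. The 20 SCEG libraries were grouped by their labels. Totals ranged from 2917138 to 10133258 counts.

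Strains were compared in pairs with edgeR 4.0.16 in R 4.3.3 (quasi-likelihood test, TMM scaling, filterByExpr), which builds on limma 3.58.1, on the counts as deposited, with Benjamini-Hochberg adjustment over all genes tested and a threshold of 0.05. The script was tested on simulated data, where it recovered most of the known changes. Where the study does not say that libraries came from separate cultures, p-values measure only the spread between libraries. The study's methods speak of independent experiments, and gsh1Δ has 3 libraries. Lists were described by counts and medians and not tested. The members and lists, 667 genes in 29 lists, were chosen with earlier results of these data known.

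Named genes followed a rule. It took GSH1 and the CUP1 genes, the largest non-overlapping called rise and fall in each list other than the mating, meiotic and marker lists, the 5 largest rises and falls among genes of at least 10 CPM in a strain, and a set of iron, Fe-S, zinc and mitochondrial genes. Other genes were chosen after their values were seen. A gene that the rule names is not reported here. Promoter windows came from the RefSeq R64 genome. Alternatives were DESeq2 1.42.0, other size factors, total counts, other filters on low counts, a prior count of 2, all 20 libraries in a fit, the replicate number as a block, thinning to the smallest library, removal of trends with GC content and length, and leaving out each library. The paper's own comparison values were not used.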

Additional observations from a re-analysis of the deposited data

Results flagged for a closer look

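Single libraries stood far from the rest of their strain in 7 of 132 gene and strain groups tested, and chance flags about 1 group in 20. Given in parentheses is the gap to the nearest library as a share of the range. In cup1F8*, library 4 was high in FET4, with 106 CPM against 73.0 to 78.7 CPM in the others (0.83), and in ZRT2, with 231 CPM against 158 to 167 CPM (0.873). Library 3 of cup1F8* was high in ISU2, with 14.7 CPM against 10.2 to 10.9 CPM (0.84), and low in TAH18 (0.979) and in ILV5, with 442 CPM against 536 to 538 CPM (0.975). In H3A110Ccup1F8*, library 4 was high in NDE1 (0.903) and library 2 low in TOM7, with 34.8 CPM against 40.0 to 40.8 CPM (0.87).

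The gsh1Δ over cup1F8* difference changed with the histone H3 allele in 28 of 66 named genes, by the interaction test of edgeR. Over all genes the share called was 19.7%. Many of these genes were named for large gsh1Δ to cup1F8* differences in libraries that also enter this test. That choice tilts rises to negative and falls to positive values, so the count and the signs are not separate evidence. Values are log2 differences, positive where gsh1Δ over cup1F8* was larger with H3A110C. Among zinc genes they were 8.17 for ZPS1, 4.60 for ZRT1, 3.81 for ADH4, 1.21 for ZRT2, 0.77 for ZRT3 and 0.72 for ZAP1, and -0.81 for COT1. YOR387C differed by 4.76. Among iron genes they were 0.70 for FET4, which is also in the zinc list, -1.22 for FRE1, -1.30 for FIT1, -0.55 for FTH1 and -2.59 for LSO1. The biotin transporter VHT1 had -2.62 and the manganese transporter SMF1 had -1.05. Fe-S scaffold genes had -1.91 for ISU2 and -1.19 for ISU1. The ferrochelatase gene HEM15 had 0.75 and ILV5 had -0.92. Mitochondrial genes had -0.75 for NDE1, 0.50 for LSC2, -0.51 for MRPL39 and -0.63 for TOM7, which lost the call without H3A110Cgsh1Δ library 2 (edgeR adjusted p = 0.0522). SOD1 had -0.86, MUP1 -1.75, HSP26 -1.24, OYE3 -1.46 and PDC6 -1.01.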

How the results depend on the processing

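Counts of genes called stayed within 1.5 times under all alternatives run but 2. For gsh1Δ against WT the count ranged from 900 (without gsh1Δ library 1) to 1269 over single libraries left out, against 1436, and the difference between backgrounds ranged from 848 (without gsh1Δ library 1) to 2051 (without H3A110Cgsh1Δ library 2), against 1173. Of the 4275 genes called between gsh1Δ and cup1F8*, 4123 were also called in the same direction by DESeq2, 3948 with total counts only, 3911 with thinned libraries and 3572 with trends of GC content and length removed, where 17 called genes changed direction. Scaling by total counts moved the median of all genes to -0.113, and 42.4% of its called genes were higher in gsh1Δ. GC content and length were known for 5671 of 5917 genes tested. Fold changes of 66 named genes gave 1111 values under alternatives, of which 1098 kept direction and call, 11 lost the call, 2 gained it and 0 changed direction. Of 493 list medians under alternatives, 418 moved by less than the spread between replicates, whatever their sign. By more than that spread, 67 moved with the sign kept and 8 moved with a change of sign. The cause of these shifts was not tested.

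With trends of GC content and length removed, the median log2 fold change was 0.775 for surface iron uptake, 1.88 for siderophores, 0.364 and 0.767 for mitochondrial and cytosolic Fe-S assembly, 0.122 for Fe-S clients, -0.154 for heme, 0.346 for branched-chain amino acids, -0.92 for biotin, 0.066 for glutathione, 1.02 for sulfur, -0.541 for the respiratory chain, -1.14 for the mitochondrial genome, -0.532 for the tricarboxylic acid cycle, 0.863 and 0.839 for the large and small ribosomal subunit, 1.58 for RNA polymerase I, -1.4 for stress, -0.592 for meiotic genes and 0.626 for markers. It changed sign for copper (-0.0464), thioredoxins and peroxidases (-0.0342) and mitochondrial import (-0.0846). With total counts only, it was 0.635 for vacuolar iron, 0.69 for iron regulators, 0.168 and 0.487 for mitochondrial and cytosolic Fe-S assembly, -0.184 for heme, -0.771 for zinc, 0.155 for copper, 0.0801 for glutathione, 0.0526 for thioredoxins and peroxidases, 1.28 for sulfur, -0.562 for the respiratory chain, -0.476 for the tricarboxylic acid cycle, 0.0704 for import, 0.926 and 0.907 for the large and small ribosomal subunit, 1.07 for ribosome biogenesis, 1.67 for RNA polymerase I and -0.455 for MATalpha genes, and changed sign for the mitochondrial ribosome (-0.096). With at least 10 counts in every library it was 0.573 for iron regulators, -1.08 for the mitochondrial genome and -0.169 for MATalpha genes. Thinning gave 0.174 for copper and changed the sign for heme (0.135). DESeq2 gave -0.56 for the mitochondrial genome, and no filter gave -1.3 there and changed the sign for markers (-0.133).

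Leaving out single libraries, the median ranged from 0.672 to 0.786 for vacuolar iron, from 0.22 to 0.39 and from 0.459 to 0.69 for mitochondrial and cytosolic Fe-S assembly, from 0.0413 (without gsh1Δ library 2) to 0.426 for Fe-S clients, from -0.138 to 0.0154 for heme, from -0.711 to -0.568 for zinc, from 0.084 to 0.364 for copper, from 0.113 to 0.297 for glutathione, from 1.23 to 1.46 for sulfur, from -0.0449 to 0.0338 for the mitochondrial ribosome, from 0.1 to 0.19 for import, from 1.72 to 1.87 for RNA polymerase I, from -1.4 to -0.937 for stress and from -0.417 to -0.279 for MATalpha genes. An alternative added after seeing the data left out H3A110Cgsh1Δ library 2, and under it the median difference between backgrounds changed sign for Fe-S clients (-0.0543), thioredoxins and peroxidases (0.00914) and the mitochondrial genome (-0.097), as did the difference of MRPL38 (-0.76) and of RPL28 (-0.34) between backgrounds and the H3A110Cgsh1Δ to H3A110Ccup1F8* fold change of FRA1 (0.065) and YOR387C (0.021).

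The sources used here do not state that replicate numbers pair the samples. Deviations of same-numbered gsh1Δ and cup1F8* libraries had correlations of 0.0727, 0.0662 and 0.105 across genes, which are not independent, and each of the 3 gsh1Δ libraries correlated best with its own number, a hint from the data and not from the design. With the replicate number as a block 4076 of the 4275 calls remained, the median was -0.55 for zinc and 0.179 for copper, and MRPL38 lost its call (-1.63, edgeR adjusted p = 0.0527).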
